A study of Saccharomyces cerevisiae with 4 samples.

Results

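The genes described here are 54 genes of amino acid biosynthesis outside the sulfur branch in Saccharomyces cerevisiae, out of 6207 genes listed for the arrays. They were taken by name: the HIS, ARG and CPA, LYS, LEU, ILV and BAT, TRP, ARO, HOM and THR, and SER, GLY and SHM genes, GDH1, GLN1, ASN1 and ASN2, and GCN4. HIS3 and LEU2 were left out because they are disrupted in the strain. All cells came from a mid2 mutant in the BY4741 background grown in rich YEPD medium at 24 °C, so the treated and the untreated cells both lacked MID2, whose product sits in the plasma membrane and reports wall stress to the Pkc1 cascade. One part of each culture received caspofungin, an antifungal drug that blocks synthesis of the main glucan of the wall, at 15 ng/ml for 2 h, and the other part grew on without the drug. RNA of 2 cultures was compared on 4 arrays with 2 colours each. Caspofungin RNA carried Cy3 on arrays 1 and 3 and Cy5 on arrays 2 and 4. No strain with an intact MID2 is part of these data, so the ratios describe the drug in this mutant alone.

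Yeast makes its amino acids from intermediates of glycolysis, the tricarboxylic acid cycle and the pentose phosphate pathway, with glutamate and glutamine as the nitrogen donors. Most of these pathways share the activator Gcn4, whose synthesis is set mainly at translation, through short upstream reading frames in its mRNA and the kinase Gcn2, which senses uncharged tRNA. Single pathways add factors of their own, such as Leu3 for leucine, Lys14 for lysine and Aro80 for the breakdown of aromatic amino acids. Rich medium supplies amino acids from outside, and BY4741 depends on that supply for histidine and leucine.

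A value is the log2 ratio that the authors deposited for a gene on an array, read here as caspofungin over untreated. That direction is likely and not settled. Its basis is that the titles name the drug treatment. The opposite direction, untreated over caspofungin, would reverse every sign given here and was not examined. A separate question is whether the dye swaps were already turned. HIS3 and LEU2, whose ratios changed sign with the dyes, bear on that question alone. HIS3 read -0.63, 0.40, -0.64 and 0.39 on arrays 1 to 4, and LEU2 read -0.58, 0.24, -0.64 and 0.25. A buffer control row, 3XSSC, went against swaps already turned, with 1 sign throughout, 0.26, 0.10, 0.997 and 0.44. The other control row, Arabidopsis, had mixed signs with -0.62, 0.098, 0.13 and 0.73. If the values follow the dyes instead, the ratios of arrays 1 and 3 have to be turned. Of the 31 genes whose means were refitted under each alternative, 17 changed sign when turned, and the turned values of all 17 stand in the closing section. The median over the 2925 genes with a value on every array was -0.13, and -0.10, -0.057, -0.22 and -0.072 on arrays 1 to 4, so a small negative ratio was the ordinary value. Of the markers of mating type a, MFA1, MFA2, STE2, BAR1 and AGA2 had values on all 4 arrays, and all of them but BAR1 were negative on each. The alpha-cell genes MFALPHA1 and STE3 and 4 of 5 sporulation genes were blank on all 4. The alpha-cell gene MFALPHA2 was blank on array 3 alone and read -1.70, 0.57 and 0.47 on arrays 1, 2 and 4.

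Of the 54 genes, 48 had a value on all 4 arrays, or 88.9%, beside 47.1% of all listed genes. ARG1, ARG3, LYS4 and HOM2 were among those blank on every array, and ARG8, an aminotransferase gene of ornithine synthesis, had 1 value, 0.10 on array 2. The rule that left cells blank is not given in the sources used here, so a blank is no level. Counts over the 48 genes therefore leave out 4 of the 7 arginine genes.

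No gene of the 48 passed the test. The test was limma on the culture means, with the larger p of both ways to pair the arrays into cultures, adjusted over all 2925 genes by the Benjamini-Hochberg method (0 of 48 at an adjusted p under 0.05, beside 0.0342% of all genes). At an unadjusted two-sided p under 0.05, 3 members had positive means, ARO9, CPA1 and ARO1, where 6.84% of all genes did. Another 4 had negative means, LEU1, BAT1, HIS7 and ARO7, where 18.5% of all genes did. Together these 7 were 14.6% of the 48, beside 25.3% of all genes. The share of positive members, 6.25%, was near that of all genes, and the share of negative members, 8.33%, was below it. With each array centred on its median, 9 members had a positive and 0 a negative mean at that level. These were 18.75% and 0.0% of the 48, beside 11.4% and 7.86% of all genes. Over all genes the counts were 334 positive and 230 negative, against 200 and 541 as deposited. Turned by the dye labels there were 9 and 1 members, 18.75% and 2.08%, beside 599 and 345 of all genes, 20.5% and 11.8%. All 4 ratios were positive for 7 members, 14.6%, beside 6.87% of all genes, and negative for 6 members, 12.5%, beside 19.3%. After centring these were 10 and 3 members, 20.8% and 6.25%, beside 11.0% and 8.72% of all genes. Over all 2925 genes the counts were 321 and 255, against 201 and 565 as deposited. When turned there were 13 and 2 such members, 27.1% and 4.17%, beside 577 and 392 of all genes, 19.7% and 13.4%. None of the members (0 of 48) differed at least 2-fold on every array, as 0.479% of all genes did.

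The ratios of the members were small. Their median mean was -0.074, which lies 0.056 above the median of all genes. The mean lay above that median in 35 members, 72.9%, beside 50.0% of all genes, and the quartiles of their means were -0.13 and 0.045. The mean stood within 0.25 of 0 for 38 of the 48, or 79.2%, beside 65.2% of all genes, and beyond 0.5 for 2, ARO9 and ARO1, beside 7.49% of all genes. The SD between gene means was 0.23 for the members and 0.33 for all genes. The 95% interval of a member's mean reached 0.25 to either side at the median over members, from 0.23 to 0.54. The adjusted test needed more than this, since ARO9 with a mean of 0.82 did not pass it.

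**Figure D1:**
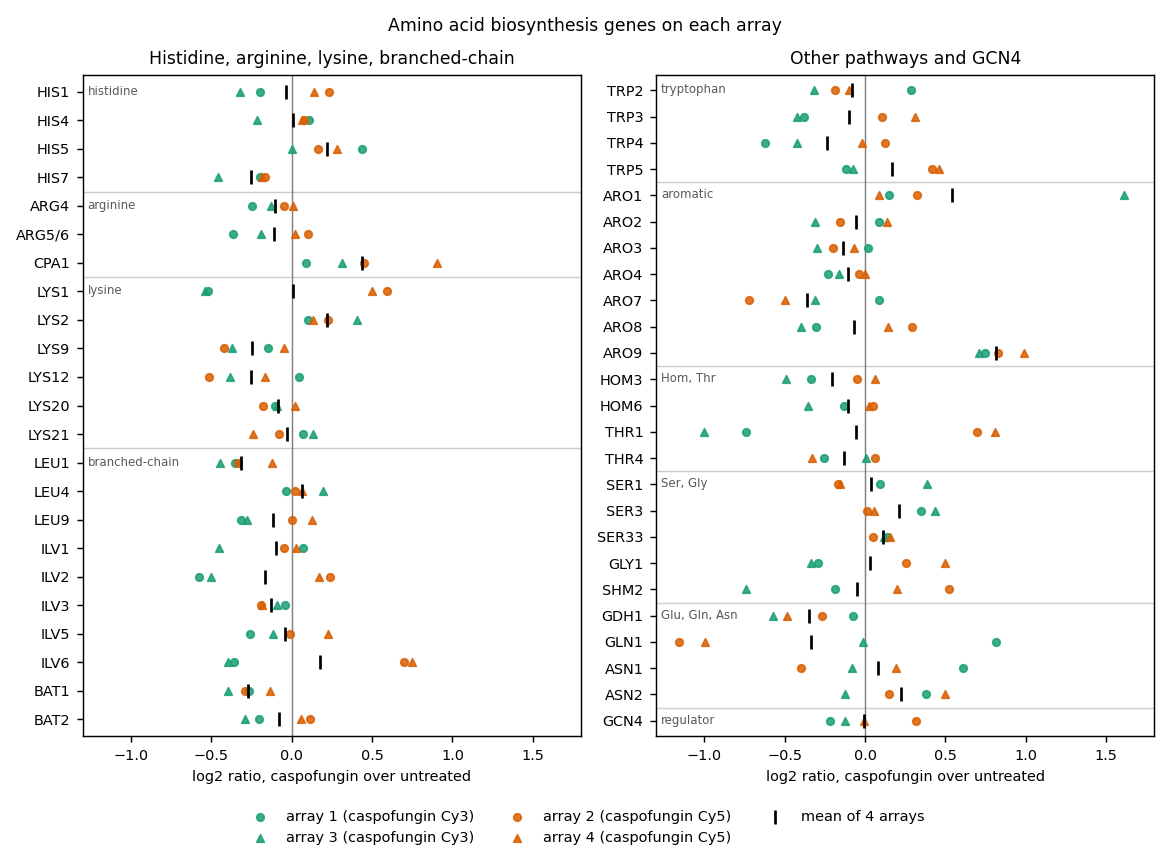
Log2 ratios of the 48 members with a value on every array (x axis, log2, caspofungin over untreated), 1 row a gene, grouped by pathway. Green marks are the arrays with caspofungin in Cy3, orange marks those with caspofungin in Cy5, and black bars the mean of 4 arrays. ARO9 stands at 0.71 to 0.99 on every array, while THR1, LYS1 and ILV6 split by dye.

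GCN4 (YEL009C), the activator shared by these pathways, read -0.22, 0.32, -0.12 and -0.0098 on arrays 1 to 4. The signs were mixed and the values lay on both sides of the median of all genes. Its mean was -0.0086 ± 0.23 (SD, n = 4 arrays), with a 95% interval from -0.28 to 0.26 (limma, adjusted p = 0.964). Centring each array on its median brought the mean to 0.10, still without a call. The level of the mRNA does not measure Gcn4 protein, which is controlled at translation.

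Among the genes of aromatic amino acids, ARO9 (YHR137W) had the largest mean of all members. It read 0.75, 0.82, 0.71 and 0.99 on arrays 1 to 4, high on each of them and with little difference between the dyes. The mean was 0.82 ± 0.12 (SD, n = 4), a 1.76-fold ratio with a 95% interval from 0.59 to 1.04, and its mean took rank 67 of 2925 from the top (limma, adjusted p = 0.163, unadjusted p = 0.000962). ARO9 encodes aromatic aminotransferase II, which is known mainly for the first step in the breakdown of aromatic amino acids to fusel alcohols and is induced by them through Aro80. It passed without array 1 (limma, adjusted p = 0.0337) and without array 3 (0.0331). With arrays 1 and 4 and arrays 2 and 3 taken as the cultures it passed too (0.0179). The same held for 4 separate arrays with a dye term (0.0179), a fit that counts arrays of the same culture as independent. Many more genes passed in these fits, 61, 56, 148 and 109 in that order, beside 1 as reported. The adjusted p of ARO9 ran from 0.0179 to 0.561 over its 11 alternatives. Turned by the dye labels its mean was 0.088.

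ARO10 (YDR380W), the phenylpyruvate decarboxylase gene that acts after ARO9 in the same breakdown route, is not a member and was in a list of amino acid breakdown genes. It read 0.95, 0.47, 1.25 and 1.24 on arrays 1 to 4. ARO9 and ARO10 were thus both positive on every array. The mean of ARO10 was 0.98 ± 0.37 (SD, n = 4; limma, adjusted p = 0.163, and from 0.0152 to 0.645 over its alternatives). It passed with arrays 1 and 4 and arrays 2 and 3 as the cultures and with the dye term. In those fits 148 and 109 of all genes passed. Turned by the dye labels its mean was -0.12. ARO80, the gene of their activator, was blank on all arrays.

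The other aromatic genes did not share the value of ARO9. ARO8 (YGL202W), which encodes aromatic aminotransferase I, the enzyme known for synthesis, read -0.31, 0.29, -0.40 and 0.14, negative with caspofungin in Cy3 and positive with it in Cy5, with a mean of -0.068 ± 0.34 (SD, n = 4). ARO3 and ARO4, the genes of the DAHP synthases that open the shikimate pathway, had means of -0.14 ± 0.14 and -0.11 ± 0.11, and ARO2, the chorismate synthase gene, -0.060 ± 0.21 (SD, n = 4).

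ARO1 (YDR127W), which encodes the multifunctional enzyme between DAHP and chorismate synthase, read 0.15, 0.33, 1.61 and 0.089. Array 3 stood far above the other 3, whose mean was 0.19. The mean of 4 was 0.54 ± 0.72 (SD; limma, adjusted p = 0.197), and turned by the dye labels it was -0.34. Its unadjusted p was 0.0722 without array 2 and 0.340 without array 3. ARO7 (YPR060C), the chorismate mutase gene that leads to phenylalanine and tyrosine, read 0.089, -0.72, -0.31 and -0.50. It was negative on all arrays but the first, more so with caspofungin in Cy5, and its mean was -0.36 ± 0.34 (SD, n = 4; limma, adjusted p = 0.173), moving to -0.24 without array 2.

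In the tryptophan branch 3 of the 4 genes split by dye. TRP3 (YKL211C), a subunit gene of anthranilate synthase, read -0.38, 0.10, -0.43 and 0.31. TRP4 (YDR354W), the gene of the next enzyme, read -0.62, 0.12, -0.43 and -0.017, and TRP5 (YGL026C), tryptophan synthase, read -0.12, 0.42, -0.078 and 0.46. All 3 were lower on arrays 1 and 3 than on arrays 2 and 4. TRP2 (YER090W), the other anthranilate synthase gene, did not show that split, with 0.29, -0.19, -0.32 and -0.10. The mean ranged from -0.24 for TRP4 to 0.17 for TRP5, and 0 of the 4 had an unadjusted p under 0.05. Without array 1 TRP4 averaged -0.11, and without array 4 TRP5 averaged 0.073. TRP4 averaged 0.29 turned by the dye labels, with an unadjusted p of 0.0342.

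In the branched-chain pathways, LEU1, BAT1 and ILV3 had negative ratios on all 4 arrays and the other 7 measured genes had mixed signs. LEU1 (YGL009C), which encodes isopropylmalate isomerase of leucine synthesis, read -0.35, -0.34, -0.45 and -0.12, with a mean of -0.31 ± 0.14 (SD, n = 4; limma, adjusted p = 0.173). BAT1 (YHR208W), the mitochondrial branched-chain aminotransferase gene, read -0.26, -0.29, -0.39 and -0.13, with a mean of -0.27 ± 0.11 (adjusted p = 0.190). ILV3 (YJR016C), the dihydroxyacid dehydratase gene, read -0.043, -0.19, -0.094 and -0.19. It was thus only slightly negative, with a mean of -0.13 ± 0.073 equal to the median of all genes. After centring, 0 members had a negative mean at an unadjusted p under 0.05, and the means of LEU1 and BAT1 were then -0.20 and -0.16. Leaving out any 1 array also took LEU1 and BAT1 above an unadjusted p of 0.05. Turned by the dye labels the means were 0.085 for LEU1 and 0.058 for BAT1.

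Acetolactate synthase, which opens the isoleucine and valine pathway, had a catalytic and a regulatory subunit gene among the members. ILV2 (YMR108W), the catalytic subunit, read -0.58, 0.24, -0.50 and 0.17, and ILV6 (YCL009C), the regulatory subunit, -0.36, 0.70, -0.40 and 0.75. Both were negative on the arrays with caspofungin in Cy3 and positive on the others. ILV1, the threonine deaminase gene, and ILV5, the reductoisomerase gene, had means of -0.10 ± 0.24 and -0.041 ± 0.21 (SD, n = 4).

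**Figure D2:**
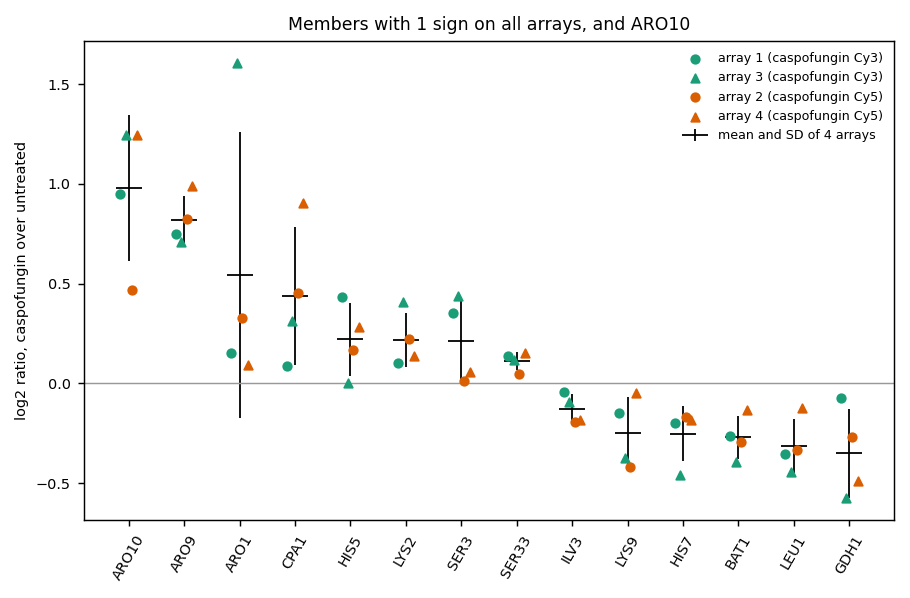
Log2 ratio (y axis, caspofungin over untreated) on each array for the 13 members with the same sign on all 4 arrays, and for ARO10, ordered by mean. Bars give the mean and SD of 4 arrays. Among these members only ARO9 and ARO1 had a mean above 0.5, and ARO1 read 1.61 on array 3.

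Of the arginine genes, CPA1 (YOR303W) was positive on all arrays. It encodes the small subunit of the carbamoyl phosphate synthetase of arginine synthesis, and it read 0.086, 0.45, 0.31 and 0.90. The values were uneven, highest on array 4, with a mean of 0.44 ± 0.34 (SD, n = 4), a 1.35-fold ratio (limma, adjusted p = 0.181). The mean was 0.24 turned by the dye labels. Without array 4 it was 0.28, with an unadjusted p of 0.254, and the p was 0.137 without array 2. ARG4 and ARG5/6, genes of argininosuccinate lyase and of enzymes of ornithine synthesis, had means of -0.10 ± 0.11 and -0.11 ± 0.21, near the median of all genes. ARG5/6 read -0.36, 0.099, -0.19 and 0.020, negative with caspofungin in Cy3 and positive with it in Cy5.

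Histidine synthesis held 1 gene positive and 1 negative on all arrays. HIS5 (YIL116W), the histidinol-phosphate aminotransferase gene, read 0.43, 0.16, 0.00029 and 0.28, with a mean of 0.22 ± 0.18 (SD, n = 4; limma, adjusted p = 0.264). HIS7 (YBR248C), whose product makes imidazole glycerol phosphate with glutamine, read -0.20, -0.17, -0.46 and -0.19, with a mean of -0.25 ± 0.14 (adjusted p = 0.194), and 0.076 turned by the dye labels. Array 3 was the lowest in both. HIS1 and HIS4, which encode the first enzyme and a multifunctional enzyme of the pathway, had means of -0.037 ± 0.26 and 0.0083 ± 0.15.

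Lysine synthesis also pointed both ways. LYS2 (YBR115C), the aminoadipate reductase gene, read 0.10, 0.22, 0.41 and 0.14, with a mean of 0.22 ± 0.14 (SD, n = 4; limma, adjusted p = 0.249). LYS9 (YNR050C), the gene of the saccharopine dehydrogenase that acts after it, read -0.15, -0.42, -0.37 and -0.048, with a mean of -0.25 ± 0.18 (adjusted p = 0.238). These successive steps thus had opposite signs on every array as deposited, and neither passed. On array 4, however, LYS9 lay above the median of all genes, which was -0.072. After centring, the mean was 0.33 for LYS2 and -0.14 for LYS9. LYS2 and LYS9 averaged -0.038 and 0.013 when turned by the dye labels. LYS12 (YIL094C), the homoisocitrate dehydrogenase gene, read 0.046, -0.52, -0.38 and -0.16, with a mean of -0.25 ± 0.25. LYS1 (YIR034C), which encodes the last enzyme, split by dye with -0.52, 0.59, -0.54 and 0.50, and its mean was 0.0071 ± 0.62.

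In the aspartate family, THR1 (YHR025W), the homoserine kinase gene, had the widest range of all members apart from GLN1. It read -0.744, 0.697, -1.001 and 0.809, with signs that followed the dye, and its mean was -0.060 ± 0.95 (SD, n = 4). HOM3 (YER052C), the aspartate kinase gene that opens the branch, read -0.33, -0.053, -0.49 and 0.062, with a mean of -0.20 ± 0.25, which was -0.11 without array 3 and 0.21 turned by the dye labels. THR4 (YCR053W), the threonine synthase gene, read -0.25, 0.061, 0.0059 and -0.33. HOM6, the homoserine dehydrogenase gene, had a mean of -0.10 ± 0.19.

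In serine and glycine synthesis, SER3 and SER33, which both encode 3-phosphoglycerate dehydrogenase, were positive on all arrays. SER3 (YER081W) read 0.35, 0.0092, 0.44 and 0.056, higher with caspofungin in Cy3, with a mean of 0.21 ± 0.21 (SD, n = 4; limma, adjusted p = 0.231), and -0.18 turned by the dye labels. SER33 (YIL074C) read 0.13, 0.048, 0.11 and 0.15, with a mean of 0.11 ± 0.046 (adjusted p = 0.461). SER1, the phosphoserine aminotransferase gene, had a mean of 0.039 ± 0.26. GLY1, the threonine aldolase gene, and SHM2, the cytosolic serine hydroxymethyltransferase gene, were negative on arrays 1 and 3 and positive on arrays 2 and 4, with means of 0.029 ± 0.41 and -0.053 ± 0.54.

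Of the genes of ammonium assimilation, GDH1 (YOR375C), which encodes the NADP-dependent glutamate dehydrogenase, was negative on all arrays. It read -0.076, -0.27, -0.58 and -0.49, with a mean of -0.35 ± 0.22 (SD, n = 4; limma, adjusted p = 0.203, unadjusted p = 0.0550). GLN1 (YPR035W), the glutamine synthetase gene, read 0.82, -1.16, -0.011 and -0.999. It was low on both arrays with caspofungin in Cy5, differed between the other 2, and its mean was -0.34 ± 0.92, moving to -0.74 when turned by the dye labels and to -0.72 without array 1. It was -0.064 when array 2 was left out and -0.12 when array 4 was. The asparagine synthetase genes had mixed signs, with 0.61, -0.40, -0.079 and 0.19 for ASN1 (YPR145W) and 0.38, 0.15, -0.13 and 0.50 for ASN2 (YGR124W).

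Differences between pathways were small. The median of the gene means ran from -0.13 in glutamate, glutamine and asparagine synthesis to 0.039 in serine and glycine synthesis. Set against the median of all genes, these were 0.0022 and 0.17, and the other 7 pathways lay between 0.013 and 0.12. For serine and glycine synthesis the medians were 0.095, 0.048, 0.11 and 0.15 on arrays 1 to 4, positive on each, over 5 genes. Of the 9 pathways, lysine synthesis was the other one whose sign did not change between arrays, with medians of -0.029, -0.13, -0.23 and -0.014. The medians of all genes were negative on each array too, at -0.10, -0.057, -0.22 and -0.072. Against these, lysine synthesis lay higher on arrays 1 and 4 and lower on arrays 2 and 3. Relative to all genes, serine and glycine synthesis stood at -0.062 when the values were turned by the dye labels, so its sign depends on the reading of the direction.

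The medians of most pathways differed between dye orientations. On arrays 1, 3, 2 and 4, in that order, the median was -0.25, -0.37, 0.11 and 0.15 for the tryptophan genes, -0.29, -0.42, 0.057 and 0.042 for the homoserine and threonine genes, and -0.26, -0.34, -0.0053 and 0.059 for the branched-chain genes. The arrays with caspofungin in Cy3 lay below the others in each of these pathways. For glutamate, glutamine and asparagine synthesis the order was reversed, with 0.49, -0.10, -0.33 and -0.15.

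**Figure D3:**
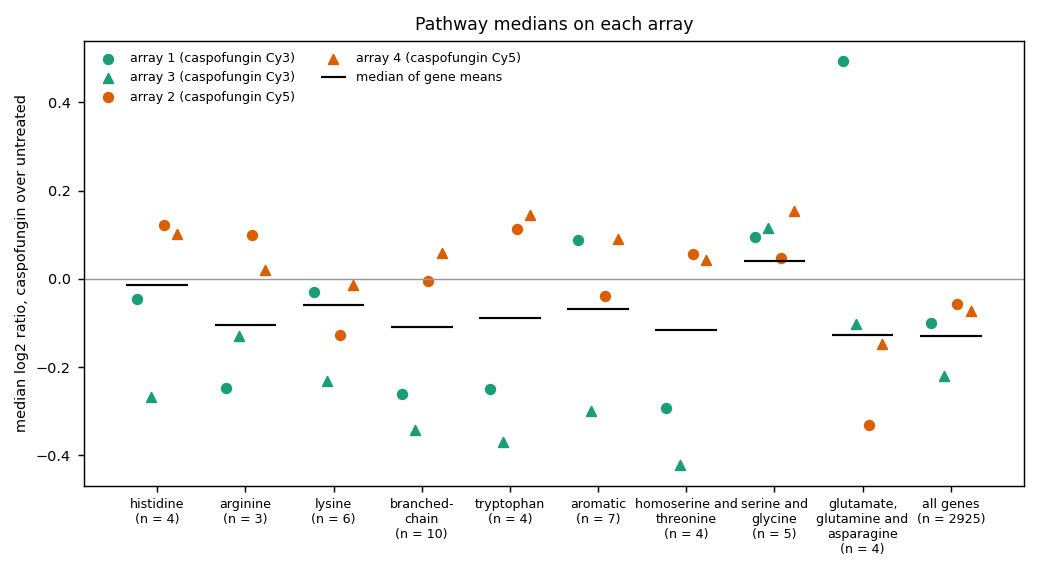
Median log2 ratio (y axis, caspofungin over untreated) of each pathway on each array, and of all 2925 genes. Green marks are arrays with caspofungin in Cy3, orange marks those with caspofungin in Cy5, and black lines the median of the gene means. The serine and glycine medians are above 0 on all arrays, and the tryptophan medians run from -0.37 to 0.15.

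The dye part was the mean of arrays 1 and 3 minus that of arrays 2 and 4, divided by 2. In size it was larger than the shared ratio in 23 of the 48 members, or 47.9%, beside 53.7% of all genes. The differences given below for single genes are not divided. The signs followed the dyes in 13 members that were negative with caspofungin in Cy3 and positive with it in Cy5, 27.1% of the 48, beside 19.7% of all genes, and in 2 the other way, LYS21 and SER1, beside 13.4%. Signs were mixed in another way in 20 members, 41.7%, beside 40.7% of all genes. Tested in the same way, 0 members passed for a dye difference (limma, lowest adjusted p = 0.0763), as did 0.0% of all genes. At an unadjusted p under 0.05 there were 9 members lower on the Cy3 arrays, beside 20.5% of all genes, and 1 higher, GLN1, beside 11.8%. The 9 were THR1, ILV6, LYS1, ILV2, GLY1, TRP3, ARO8, TRP4 and TRP5. A mean turned by the dye labels is this dye part with its sign reversed. The counts given for turned values therefore repeat these counts and are no separate result. THR1 averaged -0.87 on arrays 1 and 3 and 0.75 on arrays 2 and 4, a difference of -1.63, and ILV6 averaged -0.38 and 0.72. The corresponding differences were -1.03 for HIS3 and -0.86 for LEU2, which the strain lacks in functional form.

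The correlations between arrays showed the same split. Over the 48 members, arrays of the same orientation correlated at Pearson's r = 0.55 (arrays 1 and 3) and 0.84 (arrays 2 and 4), while pairs with the dyes swapped gave -0.33 to 0.079. Over all 2925 genes these were 0.65 and 0.79, and -0.15 to 0.14. These are correlations across genes that share each array's hybridisation, and genes are no replicates. How far dye bias sets any member's ratio was not tested.

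**Figure D4:**
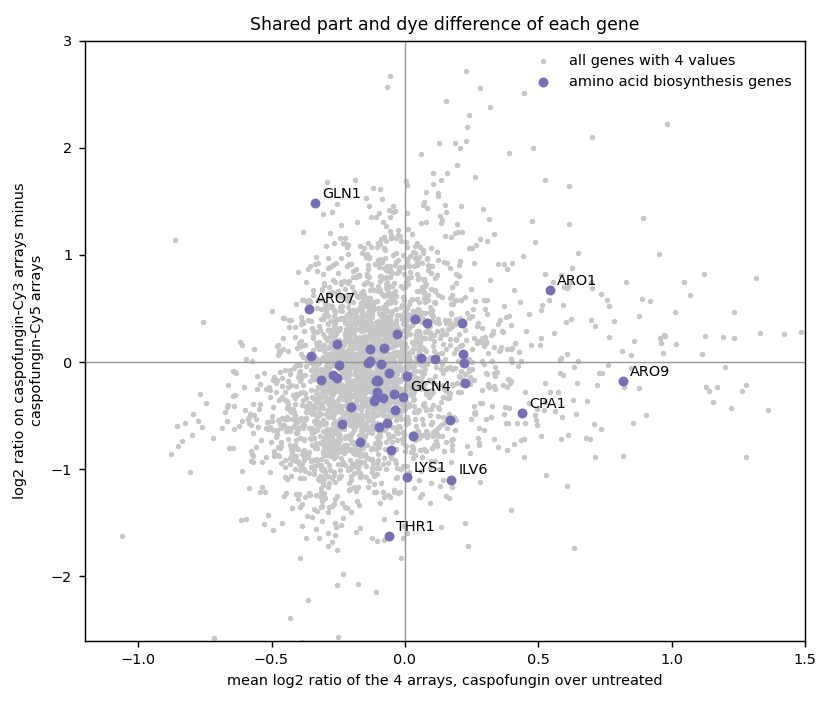
Mean log2 ratio of 4 arrays (x axis, caspofungin over untreated) against the difference between arrays with caspofungin in Cy3 and in Cy5 (y axis, log2), 1 point a gene. Grey points are all genes with 4 values, of which 26 lie outside the axes, and purple points the 48 members. ARO9 lies at 0.82 with a dye difference of -0.18, and THR1 at -0.060 with -1.63.

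Of the 6 pairs of enzymes encoded by sister genes, 1 differed the same way on all arrays. BAT1, the mitochondrial aminotransferase gene, lay below BAT2, the cytosolic one, with differences of -0.058, -0.41, -0.11 and -0.19 on arrays 1 to 4, a mean difference of -0.19 ± 0.15 (log2, SD, n = 4). The differences of the other 5 pairs changed sign between arrays. Their means were 0.18 ± 0.25 for LEU4 over LEU9, the isopropylmalate synthase genes, 0.10 ± 0.20 for SER3 over SER33, -0.14 ± 0.35 for ASN1 over ASN2, -0.059 ± 0.22 for LYS20 over LYS21, the homocitrate synthase genes, and -0.031 ± 0.19 for ARO3 over ARO4. LEU4 read -0.034, 0.020, 0.20 and 0.061 on arrays 1 to 4, against -0.32, -0.00029, -0.28 and 0.13 for LEU9. LYS20 read -0.10, -0.18, -0.092 and 0.021, against 0.069, -0.077, 0.13 and -0.24 for LYS21. ARO3 read 0.016, -0.20, -0.30 and -0.069, against -0.23, -0.039, -0.16 and 0.0022 for ARO4. None of these 6 genes kept 1 sign, and BAT2, with -0.21, 0.11, -0.29 and 0.058, followed the dyes. Similar genes can share hybridisation signal, so differences within a pair are uncertain. These differences were not tested.

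Genes around the pathways were read from lists of their own. Of 21 further biosynthesis genes 12 had 4 values, with a median mean of -0.12. Of these 12, 0 were positive and 2 negative on all arrays, beside 6.87% and 19.3% of all genes. HIS6 (YIL020C), the isomerase gene that precedes HIS7 in the pathway, was 1 of the 2, with -0.52, -0.23, -0.76 and -0.17. HIS6 and HIS7 were thus both negative on every array, with means of -0.42 ± 0.27 (limma, adjusted p = 0.163) and -0.25. HIS6 averaged 0.22 when turned. Of 10 genes of Gcn2 and eIF2, which control Gcn4 synthesis, 6 had 4 values, with means from -0.23 to 0.047 and none of 1 sign (0 of 6). GCN2 was blank.

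Of 12 amino acid permease genes 6 had 4 values, 2 of them positive on all arrays, beside 6.87% of all genes. BAP2 (YBR068C), a permease gene for branched-chain amino acids, read 0.26, 0.34, 0.094 and 0.34 (mean 0.26 ± 0.12; limma, adjusted p = 0.191). All 14 aminoacyl-tRNA synthetase genes of the list had 4 values, with a median of -0.13. Of them, 1 was positive and 4 negative on all arrays, beside 6.87% and 19.3% of all genes. VAS1, the valyl-tRNA synthetase gene, averaged 0.37 ± 0.17 and -0.14 turned by the dye labels. HTS1 and WRS1, for histidine and tryptophan, averaged -0.26 ± 0.061 and -0.39 ± 0.25. Of 7 breakdown genes 6 had 4 values, with a median of 0.16, and ARO10 was the 1 gene positive throughout. CHA1, a serine and threonine deaminase gene, was the 1 gene negative throughout, with -0.17, -0.29, -0.18 and -0.20. Of 10 pathway transcription factor genes, PHO2 was the 1 gene with 4 values, 1.31, -0.95, 0.75 and -0.88, with signs that followed the dye. Of the 45 genes of these 6 lists with 4 values, 0 passed (limma), and 8 had an unadjusted p under 0.05, or 17.8%, beside 25.3% of all genes.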

How the data were processed

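The deposited values were log2 ratios, 1 column an array, in 1 table of 6207 genes and 2 control rows. The base was read from the values, since 100% of the antilogs to base 2 fell on a grid of 4 decimals, and 4.33% to base e. The sources used here give neither the direction, nor the normalization, the filter behind blank cells or the build, and centring was left as deposited. Array medians lay between -0.22 and -0.057. Values were present for 3215 to 4346 genes an array, and 2925 genes had all 4. Names came from a RefSeq gene table of assembly R64, in which 5654 locus tags matched. The number of arrays limits the precision.

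Tests used limma 3.58.1 (R 4.3.3): a dye-swapped pair of arrays was averaged to a culture, and the mean of 2 cultures was tested against 0. Which arrays came from one culture is unstated in the labels, so both pairings of opposite dyes were fitted and the larger p was kept, then adjusted by the Benjamini-Hochberg method over 2925 genes. The dye part was tested likewise. SDs are over 4 arrays, which come from 2 cultures, so they measure the spread between these arrays, which is in part technical. The p-values and intervals rest instead on the spread between the 2 culture means, in which the dye part cancels. With only 2 means a gene, limma draws this spread towards one shared by all genes. A standard error is thus not the replicate spread of a gene alone, and it was 0.097 for both HIS1 and LYS1. For THR1 the SD was 0.95 and the standard error of the fit 0.10. The procedure was also run on simulated data, whose changes were larger than the mean of any member. Its outcome is not given here, so it does not show whether changes of the members' size would be found. With an array left out, its lone partner was taken to vary like the other culture. The means given for these fits are over the remaining arrays. The p is for the mean of 2 cultures, in which the lone array counts as a culture and keeps its dye part.

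Arrays were given in full for GCN4, members of 1 sign, members at an unadjusted p under 0.05, the 2 members of each pathway with the largest means in size, and sister genes. Outside the members, up to 3 genes a list at that p and of 1 sign were named, and HIS3 and LEU2. PHO2, CHA1, ARO80 and the further genes named were picked with their values known. One item is not reported here. The members and lists were chosen with earlier results of these data known. The alternatives were centring, scaling, direction, arrays left out, pairing, genes tested and a dye term.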

Additional observations from a re-analysis of the deposited data

Results flagged for a closer look

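Of 66 items checked over the 4 arrays, 3 had an array that stood apart from the other 3 by Dixon's criterion, which chance meets in about 1 of 20, and in each it was array 3. ARO1 read 1.61 on array 3 and 0.089 to 0.33 on the others, and its mean was 0.19 without it. HIS7 read -0.46 on array 3 and -0.20 to -0.17 on the others. HIS4 read -0.22 on array 3 and 0.065 to 0.11 on the others.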

How the results depend on the processing

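Each ratio already pairs the treated and the untreated RNA of a culture on 1 array, and the test set these ratios against 0. No further pairing was possible because the arrays form 1 group, so no second group has numbers to match. Of the 48 members, 1, ARO9, passed the test with arrays 1 and 4 and arrays 2 and 3 as the cultures and with the dye term, and from 0 to 1 passed with an array left out. Over all genes, 1 gene passed as reported, 148 and 109 under those fits, 61 without array 1, 56 without array 3, 10 after centring, 11 after scaling, and 0 when turned by the dye labels or with genes on at least 3 arrays. Members at an unadjusted p under 0.05 with positive means numbered 9 after centring and 9 when turned (334 and 599 of all 2925 genes), and 1 to 4 with an array left out (116 to 173 of all genes). Those with negative means numbered 0 after centring (230 of all genes), 1 when turned (345), 2 with genes on at least 3 arrays (499 of 3299), 7 with arrays 1 and 2 and arrays 3 and 4 as the cultures (646), and 0 to 2 with an array left out (134 to 348). Positive on all arrays were 13 members when turned (577 of all genes) and 7 to 9 with an array left out (234 to 295). Negative on all were 3 after centring (255), 2 when turned (392) and 6 to 12 with an array left out (685 to 894). For the dye part, 4 members passed after centring (237 of all genes) and 5 with arrays 1 and 2 and arrays 3 and 4 as the cultures (485). Relative to all genes, the lysine median was -0.064 when turned, and that of serine and glycine -0.062 when turned and 0.23 to 0.24 with an array left out. Turning changed the sign of 17 of 31 named means. The 9 with an unadjusted p under 0.05 as deposited went to 0.076 for HIS7, 0.085 for LEU1, 0.058 for BAT1, -0.34 for ARO1, 0.22 for HIS6, -0.14 for VAS1, -0.12 for ARO10, 0.014 for MFA2 and 0.30 for AGA2. The other 8 went to -0.038 for LYS2, 0.013 for LYS9, 0.29 for TRP4, 0.21 for HOM3, -0.18 for SER3, -0.012 for SER33, 0.17 for ARG5/6 and 0.16 for GCN4. The causes were not tested.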
